A study of Mus musculus with 5 samples.

Results

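Natural killer (NK) cells of the mouse kidney were chosen by their transcripts. A kept cell counted as an NK cell when it held at least 2 unique molecular identifiers (UMIs, each standing for 1 captured RNA molecule) of Ncr1, Klrb1c and Klre1 together. It could hold at most 1 UMI of Cd3e, Cd3d and Cd3g, at most 2 of C1qa, C1qb and C1qc, and none of Cd4, Cd8b1 or Cd79a. Cells were kept with no more than 30% of UMIs from mitochondrial genes and 200 or more genes detected. The rule selected 341 of 60043 kept cells, of which 132 came from the control library, 30 and 22 from AKI 1 and AKI 2, and 60 and 97 from CKD 1 and CKD 2.

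The kidneys came from wild-type C57BL/6 males, 8 to 10 weeks old. The control (1 library) is called baseline in the paper's results and is taken here as week 0. The methods, however, state that control mice received vehicle on the AAI schedule, so its sampling time is uncertain. The acute kidney injury (AKI) group was sampled at week 2, after intraperitoneal aristolochic acid I (AAI), a plant toxin of the proximal tubule, at 3 mg/kg every 3 days (2 libraries). The chronic kidney disease (CKD) group was sampled at week 4, after the same 2 weeks of AAI and a further 2 weeks without it (2 libraries). The sample sizes in the methods equal the numbers of libraries, but whether each sample was 1 mouse is not stated, so the spread between libraries may be technical in part. Time and treatment cannot be told apart, since no kidneys stated to be vehicle-treated ones of week 2 or 4 were analysed here. Kidneys were digested enzymatically and run on the 10x Genomics droplet platform without a sort for immune cells.

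NK cells are innate lymphocytes that kill stressed or infected cells by releasing perforin (Prf1) and granzymes and that secrete interferon gamma (Ifng). They carry no rearranged antigen receptor. Activating receptors such as NKp46 (Ncr1), NK1.1 (Klrb1c) and NKG2D (Klrk1) and inhibitory receptors such as the Ly49 family (Klra genes) and CD94 (Klrd1) together set their response. Circulating NK cells depend on the transcription factor Eomes, while type 1 innate lymphoid cells of tissues share many NK genes and are known for CD49a (Itga1), Cxcr6 and low Eomes. Both kinds of cell carry the gate genes, so the rule does not separate them.

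The genes of the rule itself were levels that chose the cells and are given as a description only. In the order control, AKI 1, AKI 2, CKD 1 and CKD 2, the summed NK cells held 2.59, 1.23, 2.98, 1.404 and 1.84 UMIs of Ncr1 per 10000. Klrb1c stood at 3.31, 2.82, 3.72, 3.37 and 2.59, and Klre1 at 3.55, 3.55, 8.51, 4.77 and 4.06 per 10000. Positions below are those of RefSeq genes on GRCm38.p6, the assembly behind the mm10 build named in the control's gene list. Ncr1 lies on chromosome 7 (4337715 to 4345184). Klrb1c (128778485 to 128788641) and Klre1 (129559365 to 129585828) lie on chromosome 6, in the same region as Klrd1 (129588092 to 129598775), Klrk1 (129610323 to 129623903) and Klra8 (130115226 to 130129898).

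All 16 NK cell markers listed were detected in every library, and their sum was 104.9 per 10000 in the control, 125 and 153 in AKI, and 134 and 112 in CKD. Prf1, perforin, was not part of the rule and was found in 61.4% of control NK cells, in 60% and 63.6% of AKI and in 71.7% and 73.2% of CKD NK cells. In B lymphocytes, which should lack it, the share was 0 to 1.61%, at median depths of 2186 to 3139 UMIs against 3046.5 to 4078 in NK cells. Klra8, the Ly49H receptor, was found in 24.2% of control and 36.7 to 45.5% of the other NK cells, and in no B lymphocyte of any library.

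**Figure D1:**
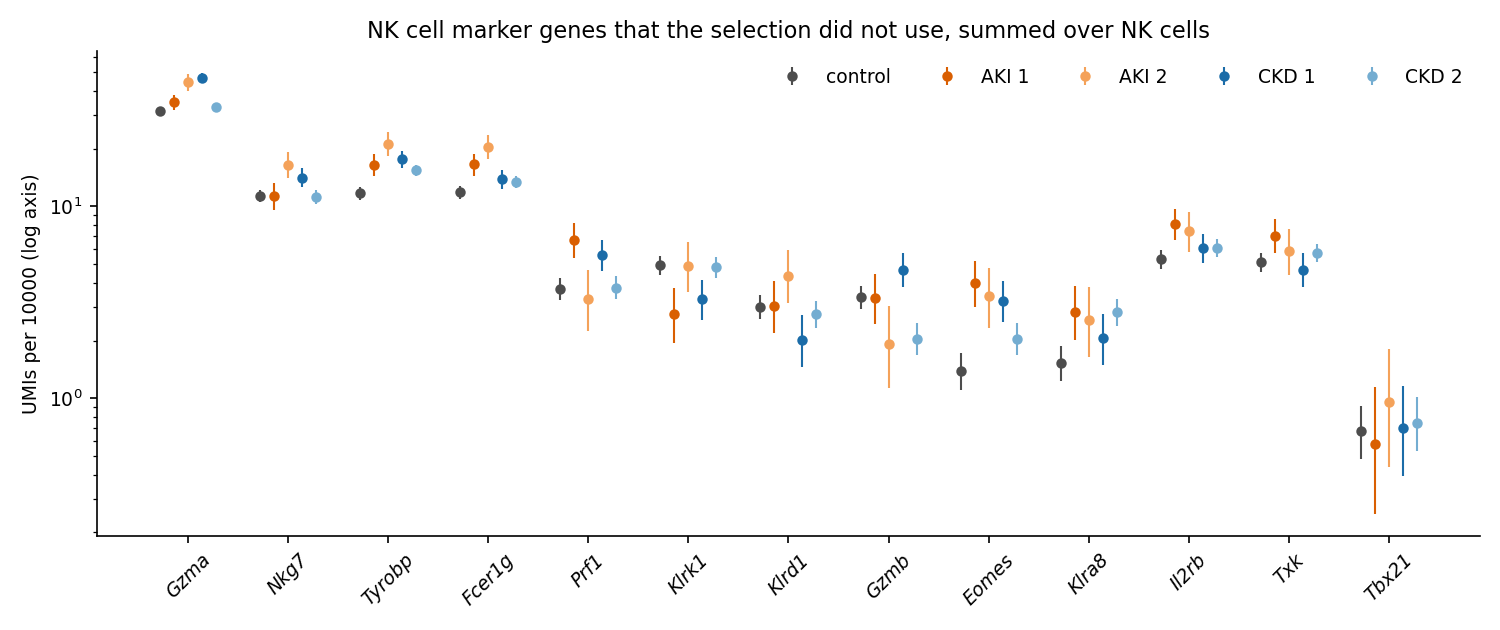
UMIs per 10000 (log axis) of 13 NK cell marker genes that the selection did not use, summed over the NK cells of each library; points are libraries and bars are 95% Poisson intervals. Gzma is the highest in all 5 libraries (31.5 to 46.7 per 10000), and the control is the lowest of the 5 for Eomes (1.39).

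Most defining markers of other lymphocytes were at or near 0. Il5, Il13, Il22 and Il23r, cytokine and receptor genes of type 2 and type 3 innate lymphoid cells, were at 0 in all 5 libraries. Trac, the constant region of the T cell receptor alpha chain, stood at 0.115 per 10000 in the control and 0.187 to 0.289 in the others. Trbc1 of the beta chain stood higher, at 2.26 in the control and 2.53 to 3.40 in the others, and is a transcript that NK cells are known to make without a rearranged receptor. Cd8a, which the rule did not use, was at 0 in the control and in AKI 1 and had UMIs in AKI 2, CKD 1 and CKD 2. The 12 T lymphocyte markers listed, with Trbc1 among them, summed to 5.15 per 10000 in the control, 6.08 and 8.62 in AKI and 6.88 and 6.73 in CKD. The 4 gamma-delta T lymphocyte markers summed to between 0.298 and 0.638.

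The edge of the rule was crowded. Of 775 kept cells with at least 2 UMIs of the 3 gate genes, 418 held 2 or more CD3 UMIs and were left out as T lymphocytes. Cells with exactly 2 CD3 UMIs that met every other condition of the rule numbered 17. Just inside the rule, 87 NK cells held exactly 2 gate UMIs and 42 held 1 CD3 UMI. Just outside it, 228 cells met every other condition with 1 gate UMI, 98 of them in CKD 1. Above the mitochondrial limit the gate was met by 14 barcodes of the control, 1 of CKD 1 and 1 of CKD 2, and by none in AKI, while 38.7% of control barcodes and 11.1 to 12.7% of the others lay above the limit.

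The median NK cell held 7.14% mitochondrial UMIs in the control and 3.01 to 3.64% elsewhere. The summed NK cells held 606367 UMIs in the control, 138194 and 94008 in AKI and 213685 and 537515 in CKD, so a count of 3 UMIs, the floor used for a library at 0, corresponds to between 0.0495 and 0.319 per 10000. Intervals in the text are exact at the 95% level and cover counting error only. A barcode of another library was shared by 2 NK cells of CKD 2 only, both with CKD 1.

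RNA of other cells moved with the libraries. Markers of thick limb, distal and collecting duct cells stood at 16.2 per 10000 in control NK cells, 2.32 and 1.17 in AKI, and 7.96 and 0.800 in CKD. Umod, the thick limb transcript uromodulin, was found in 118 of the 132 control NK cells. Proximal tubule markers stood at 25.8 in the control, 10.4 and 10.6 in AKI and 22.1 and 33.1 in CKD. Endothelial markers stood at 7.69 in the control and 0.106 to 0.800 elsewhere, and Plvap, an endothelial gene, came from 11 control NK cells with 144 UMIs. Droplets with 5 or more UMIs of tubule transporter genes or 3 or more of endothelial or collagen genes, called mixed droplets below, made up 19 of the 132 control NK cells, 0 in AKI, 5 of 60 in CKD 1 and 3 of 97 in CKD 2.

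**Figure D2:**
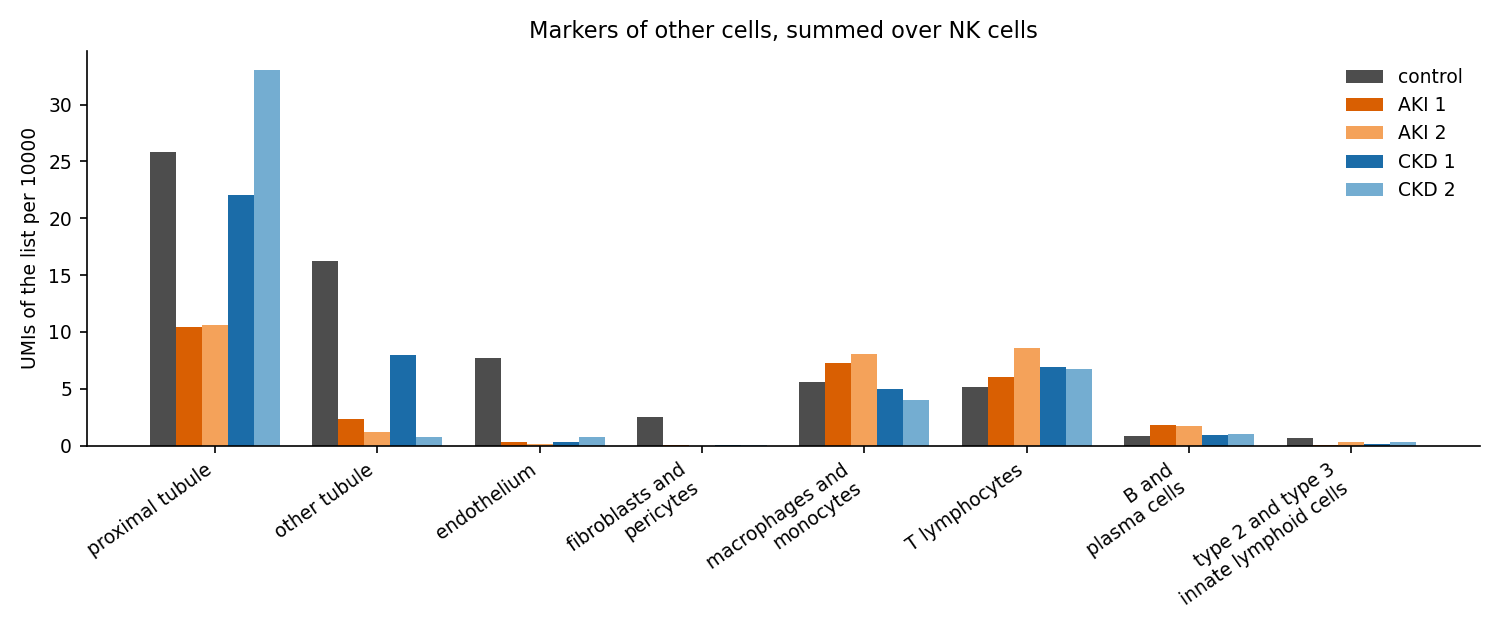
Summed UMIs per 10000 of marker lists of other cells in the NK cells of each library (bars, 1 per library). Proximal tubule markers are higher in the control (25.8) and in CKD (22.1 and 33.1) than in AKI (10.4 and 10.6). Other tubule markers are lowest in CKD 2 (0.800), and endothelial markers are highest in the control (7.69). Innate lymphoid markers of types 2 and 3 lie below 1 in all 5 libraries.

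NK cells were a smaller share of the kidney cells in AKI than in the control library. They made up 1.44% of kept cells in the control (interval 1.21 to 1.71%), 0.268% (0.181 to 0.382%) and 0.203% (0.127 to 0.307%) in AKI, and 0.311% (0.237 to 0.400%) and 1.02% (0.828 to 1.24%) in CKD. Both AKI libraries lay below the control, CKD 1 overlapped AKI within counting error, and CKD 2 stood apart from CKD 1. The CKD mean exceeded the AKI mean by 0.430 percentage points (SD pooled over the libraries 0.356, n = 2 and 2) and by 0.0754 points without CKD 2. An exact permutation test of 2 against 2 libraries cannot go below a two-sided p of 0.333, and no other test of the shares was run.

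The denominators differed widely as well, since NK cells and CD3-positive lymphocytes together numbered 1376 in the control and between 6229 and 8069 in the other libraries. Among these lymphocytes, NK cells were 9.59% in the control (8.09 to 11.3%), 0.452% and 0.353% in AKI, and 0.744% and 1.47% in CKD. All CKD values here were above all AKI values, and the means differed by 0.704 percentage points (pooled SD 0.366, n = 2 and 2; 0.341 without CKD 2). Among kept cells other than CD3-positive lymphocytes, the share was 1.67% in the control, 0.654% and 0.474% in AKI and 0.531% and 3.23% in CKD. Set against B lymphocytes alone, NK cells were 34.7% of both types in the control, 32.6% and 37.9% in AKI and 37.7% and 47.3% in CKD, with overlapping counting intervals for the control, AKI and CKD 1. These 2 further denominators were chosen after the shares had been seen.

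**Figure D3:**
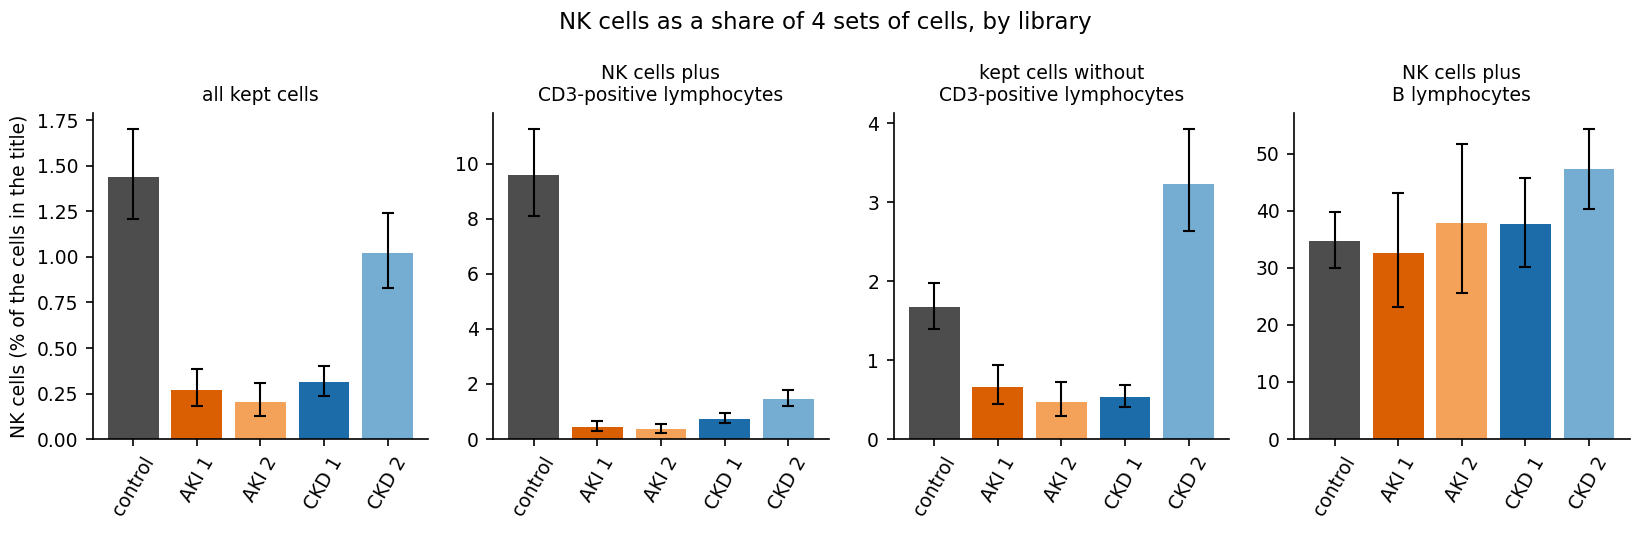
NK cells as a percentage of 4 sets of cells in each library (bars from 0, 1 per library; lines are exact 95% binomial intervals). The control is the highest among all kept cells (1.44%) and among lymphocytes (9.59%), CKD 2 is the highest among kept cells without CD3-positive lymphocytes (3.23%), and against B lymphocytes the shares lie between 32.6% and 47.3%.

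NK cells transcribed their killing genes in every library. Gzma, granzyme A, stood at 31.5 per 10000 in the control, 34.9 and 44.4 in AKI and 46.7 and 32.9 in CKD. Prf1 stood at 3.71, then 6.66 and 3.30, then 5.57 and 3.78, and Gzmb, granzyme B, at 3.36, then 3.33 and 1.91, then 4.68 and 2.05. For all 3 genes the AKI and CKD values overlapped. The whole list of 20 cytotoxic genes summed to 74.3 in the control, 90.45 and 107 in AKI and 105.5 and 81.4 in CKD. Srgn, the granule proteoglycan serglycin, stood at 10.7 in the control, 21.4 and 21.3 in AKI and 18.0 and 15.3 in CKD (log2 difference between CKD and AKI -0.39, SE 0.20), an order of AKI, CKD and control without overlap that did not pass the test described below (edgeR, adjusted p = 0.667).

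Activating and inhibitory receptors were detected in every library. Klrk1 stood at 4.95 per 10000 in the control, 2.75 and 4.89 in AKI and 3.28 and 4.82 in CKD, and Klra8 at 1.53, then 2.82 and 2.55, then 2.06 and 2.81. Klrd1, the inhibitory partner CD94, stood at 3.00, then 3.04 and 4.36, then 2.01 and 2.75, with both CKD libraries below both AKI libraries (log2 -0.61, SE 0.30, edgeR adjusted p = 0.665). Il2rb, the beta chain of the receptors for interleukins 2 and 15, was likewise lower in both CKD libraries (6.08 and 6.06) than in AKI (8.10 and 7.45) and stood at 5.29 in the control (log2 -0.39, SE 0.22, edgeR adjusted p = 0.776).

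Chemokines were the most abundant secreted products. Ccl5 stood at 82.9 per 10000 in the control, 111 and 129 in AKI and 145 and 84.7 in CKD. Ccl4 stood at 70.4, then 56.2 and 104, then 47.3 and 56.2, and Xcl1, a chemokine for cross-presenting dendritic cells, at 18.3, then 27.5 and 31.0, then 22.3 and 23.1. Ifng stood at 6.55 in the control, 7.53 and 12.4 in AKI and 8.94 and 7.78 in CKD. Xcl1 was lower in both CKD libraries than in both AKI libraries, with a log2 difference of -0.39 (SE 0.19), which did not pass the test (edgeR, adjusted p = 0.665).

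No gene passed the test between CKD and AKI. The test was edgeR's quasi-likelihood test on the summed counts of 2 against 2 libraries with Benjamini-Hochberg adjustment. Of 2275 genes past the count filter it called 0 (0%), with 172 genes at an unadjusted p under 0.05. Leaving out cells above 3 times the median UMIs gave 85 of 2066 genes at that unadjusted p by edgeR. A mitochondrial limit of 15% gave 134 of 2197. DESeq2 called 4 genes, all higher in CKD, and had 60 at an unadjusted p under 0.05. The 4 were Gpx3, mt-Cytb, mt-Nd4 and mt-Nd1. On simulated counts for this comparison, 76% of genes changed 4-fold and 18% of those changed 2-fold were recovered, so 2-fold changes were mostly beyond its reach.

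The genes with the smallest unadjusted p, named here after their values were seen, were largely transcripts of kidney tubule and of mitochondria. Gpx3, a plasma glutathione peroxidase made by the proximal tubule, stood at 7.82 and 7.87 per 10000 in AKI and 15.5 and 22.96 in CKD (log2 difference 1.28, SE 0.25, edgeR adjusted p = 0.222). Spink1 stood at 1.09 and 0.851 against 3.28 and 3.83, and Fxyd2, a subunit of the sodium pump, at 2.10 and 1.49 against 3.98 and 6.07. Mt-Cytb, a mitochondrial gene, stood at 25.1 and 19.4 against 44.8 and 42.2 per 10000. For these 4 genes the groups did not overlap, as for the proximal tubule list (10.4 and 10.6 against 22.1 and 33.1), whose part in these differences was not tested.

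Cxcl10 and Lyz2 were also among the leading genes. Cxcl10, an interferon-induced chemokine, stood at 11.2 and 10.6 per 10000 in AKI and 21.8 and 19.4 in CKD, and at 9.45 in the control (log2 difference 0.88, SE 0.20, edgeR adjusted p = 0.222). The 2 groups did not overlap for Cxcl10, and which cells its RNA came from was not tested. Lyz2, lysozyme of myeloid cells, stood at 1.66 and 1.28 in AKI and 0.468 and 0.428 in CKD.

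The gene lists moved little. Of 12 cytotoxic genes tested, none was called and none had an unadjusted p under 0.05, and their median log2 difference was -0.09, against -0.002 over all genes tested. Of 13 activating receptors and adaptors 1 was lower at an unadjusted p under 0.05 (Fcer1g, the Fc receptor gamma chain, log2 -0.48, SE 0.21), and of 13 inhibitory receptors 1 (Klrb1a, log2 -0.91, SE 0.40). Over all genes, 5.27% were higher and 2.29% lower in CKD at that unadjusted p. Medians were -0.39 for 11 immature NK cell genes, -0.22 for 9 mature NK cell genes, -0.36 for 9 genes of major histocompatibility complex (MHC) classes I and II, and 0.37 for 11 glycolysis genes, of which Pgk1 (log2 1.26, SE 0.44) and Tpi1 (log2 1.34, SE 0.50) had an unadjusted p under 0.05. None of these passed adjustment (edgeR adjusted p = 0.462 for Pgk1 and 0.528 for Tpi1).

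Interferon-stimulated genes did not rise as a list. Of 13 tested, 2 were higher in CKD at an unadjusted p under 0.05 and the median log2 difference was 0.02. Rsad2, the antiviral protein viperin, stood at 0.868 and 0.532 per 10000 in AKI, 6.13 in CKD 1 and 1.06 in CKD 2, and in CKD 1 its 131 UMIs came from 18 of 60 NK cells (log2 2.17, SE 0.76, edgeR adjusted p = 0.462). Isg15 stood at 6.37 and 7.13 in AKI and 5.90 and 3.85 in CKD.

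Transcription factors of the lineage were present throughout. Eomes stood at 1.39 per 10000 in the control, 3.98 and 3.40 in AKI and 3.23 and 2.05 in CKD, so that the groups lay in the order AKI, CKD, control with no overlap. Tbx21, T-bet, stood between 0.579 and 0.957 in all 5 libraries. Runx3 stood at 2.14, then 4.70 and 5.64, then 3.79 and 3.07, and Rora, a factor of innate lymphoid cells, at 1.43, then 0.651 and 0.532, then 1.87 and 0.949. Between CKD and AKI the log2 differences were -0.56 (SE 0.28) for Eomes, -0.63 (SE 0.25) for Runx3 and 1.12 (SE 0.47) for Rora, none of which passed edgeR's test (adjusted p = 0.685, 0.583 and 0.633).

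**Figure D4:**
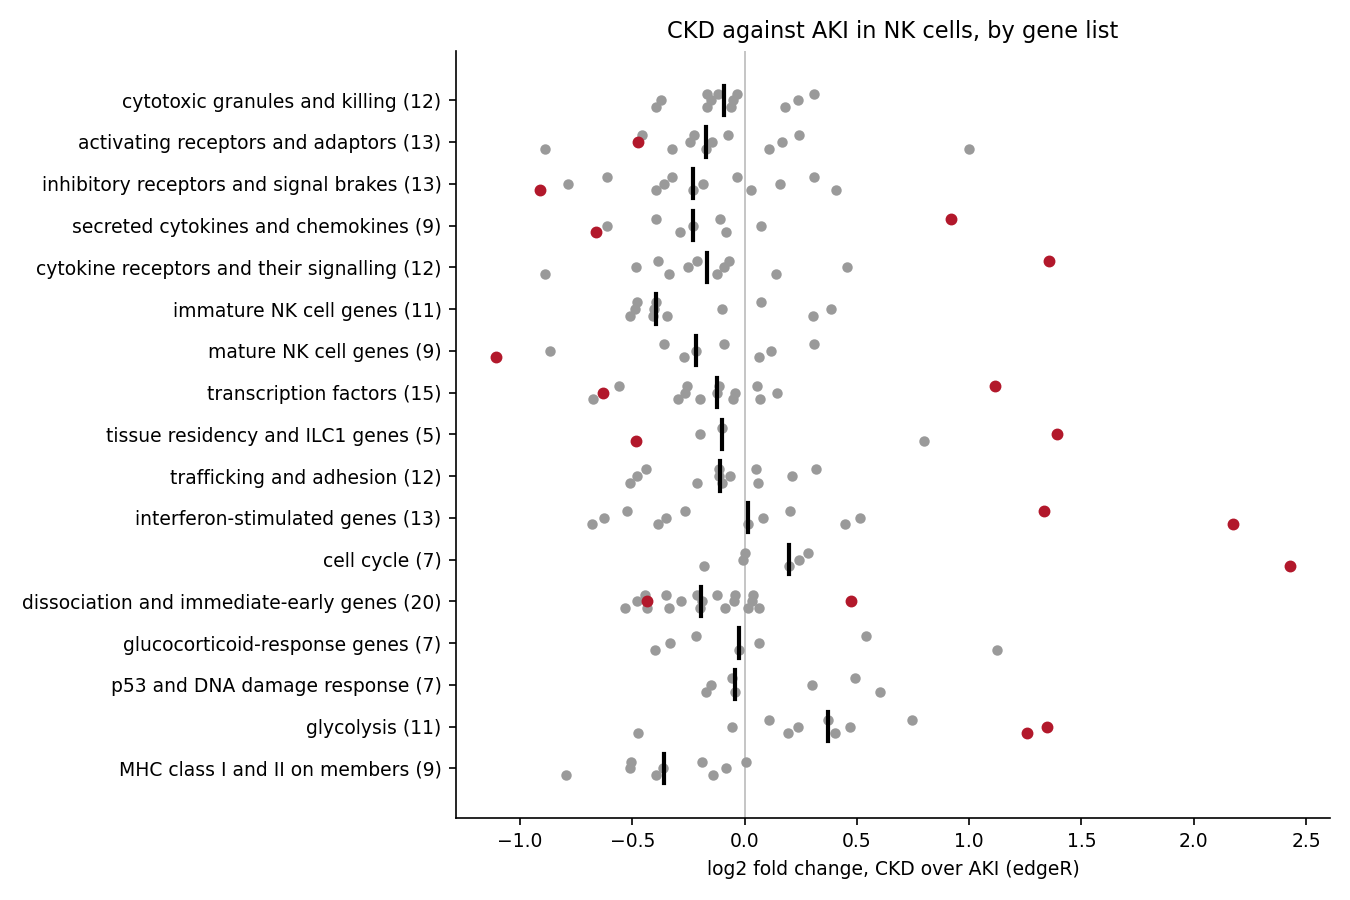
Log2 fold change of CKD over AKI in NK cells (edgeR) for each gene of 17 lists; every point is a gene, red points have an unadjusted p under 0.05, black bars are list medians and the number of genes tested stands in parentheses. No gene passes adjustment, and 15 list medians lie between -0.394 and 0.017; those of cell cycle (0.198) and glycolysis (0.371) lie above.

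Control and AKI could be compared by size only, since there was 1 control library. A gene was counted when both AKI libraries differed from the control by at least 2-fold in the same direction, among 7422 genes with at least 10 UMIs over the 3 libraries. Of these, 214 were higher (2.88%) and 569 lower (7.67%) in AKI. A library at 0 was set to 3 UMIs, which is 0.319 per 10000 in AKI 2 and 0.0495 in the control. A gene with no UMI in an AKI library could thus count as higher, as Mki67 did at 6.45 times the control in AKI 2. The count of higher genes includes such cases. All 5 markers of the distal tubule segments and all 5 endothelial markers were among the lower genes, as were 3 of 7 proximal tubule markers, and leaving out mixed droplets gave 215 higher and 354 lower of 5710 genes. The 5 lower genes with the largest difference outside marker lists were Egf, Mgp, Igfbp5, S100g and Igfbp3, all known from tubule, vessel or stroma. Egf, a thick limb and distal tubule product, stood at 10.2 per 10000 in the control and had no UMI in either AKI library.

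Some genes of tissue residency were lower in AKI than in the control. Of 10 listed genes with enough UMIs, 4 were lower and 0 higher in AKI, beside 7.67% lower and 2.88% higher over all genes compared. Cxcr6, a chemokine receptor of tissue lymphocytes, stood at 0.676 per 10000 in the control (41 UMIs), 0.289 and 0.319 in AKI (4 and 3 UMIs) and 0.0936 and 0.130 in CKD. Tnfsf10, the death ligand TRAIL, stood at 0.594 in the control, 0.217 and 0.213 in AKI, and 0 and 0.149 in CKD. Itga1 stood at 1.06, then 0.217 and 0.426, then 0.0936 and 0.130, and Tmem176b at 2.01, then 0.941 and 0.532, then 1.36 and 2.57. Without mixed droplets Cxcr6 (0.323 and 0.356 of the control) and Tnfsf10 (0.499 and 0.489) stayed under the 2-fold mark in both AKI libraries, while Itga1 (0.566 and 1.11) and Tmem176b (0.681 and 0.385) did not in both. The AKI values rest on 2 to 13 UMIs a gene, and Itga1 is also made by stroma and vessels.

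Other lymphocyte genes differed from the control as well. Cxcr3, a receptor for interferon-induced chemokines, stood at 0.462 in the control and 0.106 to 0.149 in the 4 other libraries. Ifngr1, a chain of the interferon gamma receptor, stood at 4.67 in the control, 13.7 and 11.3 in AKI and 12.03 and 8.41 in CKD. Stat3 stood at 0.891, then 3.76 and 2.23, then 2.76 and 1.80, and Ctla2a, a cysteine protease inhibitor, at 4.37, then 10.6 and 13.2, then 8.99 and 8.47. In Ifngr1, Stat3 and Ctla2a, all 4 AAI libraries were above the control. Without mixed droplets Ifngr1 was 2.17 and 1.79 times and Ctla2a 1.99 and 2.47 times the control in AKI 1 and AKI 2, so neither reached 2-fold in both, and with at least 3 gate UMIs a cell Cxcr3 did not either.

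Of 19 transcription factors, 4 were higher in AKI (Eomes, Runx3, Bhlhe40 and Nr4a3) and 1 lower (Rora), beside the same 2.88% and 7.67% over all genes. Eomes was 2.87 and 2.46 times the control in AKI 1 and AKI 2, and without mixed droplets 2.13 and 1.82 times. Runx3 was 2.19 and 2.63 times the control, and 1.52 and 1.82 times without them, and Bhlhe40 2.43 and 2.22 times, and 2.17 and 1.99 times without them. None of the 4 factors that were higher thus reached 2-fold in both AKI libraries without mixed droplets, whereas Rora stood at 0.349 and 0.285 of the control. With at least 3 gate UMIs a cell Rora stood at 0.670 and 0.464 and was no longer lower by 2-fold in both. Stat3 was 4.201 and 2.49 times the control without mixed droplets. The endothelial markers at 7.69 per 10000 in the control and 0.289 and 0.106 in AKI stood beside these values, and their part was not tested.

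Among genes with at least 30 UMIs and outside the marker lists of other cells, the 5 higher in AKI with the largest fold were Ctss, Nrarp, Arrdc4, Rgs16 and Plac8. Lyz2, on the macrophage list, was 12.6 and 9.68 times the control (8 UMIs in the control, 23 and 12 in AKI), while that list summed to 5.64 per 10000 in the control and 7.31 and 8.08 in AKI. Plac8 was 4.89 and 4.71 times the control, but 0.718 and 5.47 times with at least 3 gate UMIs a cell. Ctss, the lysosomal protease cathepsin S, was 11.4 and 4.52 times the control, on 10 UMIs in the control and 26 and 7 in AKI. Nrarp, a feedback regulator of Notch signalling, stood at 0.429 per 10000 in the control, 3.11 and 2.55 in AKI and 1.68 and 1.32 in CKD. Rgs16, a brake on receptor signalling, stood at 0.280, then 1.23 and 1.60, then 0.749 and 0.726. Nrarp, Rgs16 and Arrdc4 lay in the order AKI, CKD, control with no overlap, and none of the 3 passed edgeR's test of CKD against AKI (adjusted p = 0.395, 0.583 and 0.531). Of the killing genes 17 were compared, of which 0 were higher and 1, Tnfsf10, was lower in AKI. Over all genes compared, 2.88% were higher and 7.67% lower, so the count is near those shares.

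NK cells were not uniform within a library. A set of 6 residency genes (Itga1, Cxcr6, Il7r, Cd200r1, Tmem176a and Tmem176b) reached 2 or more UMIs in 51 of 132 control cells, 8 of 30 and 5 of 22 AKI cells, and 10 of 60 and 19 of 97 CKD cells. To compare depths, each cell was thinned to 1500 UMIs, and the expected share was then 18.5% in the control (12.2 to 26.2%), 7.41% and 6.65% in AKI and 9.52% and 9.54% in CKD. The control was the highest, and its interval overlapped those of all 4 other libraries. CKD exceeded AKI by 2.50 percentage points (pooled SD 0.377), and by 1.44 without mixed droplets. In CD8 T lymphocytes the thinned share was 19.2% in the control, 22.4% and 25.5% in AKI and 21.9% and 14.7% in CKD. It was thus no lower than in NK cells in any library, and the set is not particular to NK cells. In B lymphocytes the thinned share was 3.59% in the control, 5.64% and 0.562% in AKI and 6.32% and 1.28% in CKD. Intervals of NK cells and B lymphocytes overlapped in all 4 AKI and CKD libraries. In CKD 2 the overlap was narrow, at 4.47 to 17.3% against 0.0758 to 5.67%. Overlap of intervals is not a test, and whether the shares there, or their difference, exceed that background was not tested.

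Cells with and without the set differed in some of the genes that did not define it. Eomes stood at 0.362 per 10000 in control cells with the set and 2.62 in the other control cells. The same split gave 0.328 against 4.39 in CKD 1 and 0.803 against 2.85 in CKD 2, with intervals that did not overlap in these 3 libraries. In AKI, with 8 and 5 cells holding the set, Eomes stood at 3.06 against 4.54 in AKI 1, where the intervals overlapped, and at 0 against 4.66 in AKI 2, where they did not. Klra8 stood at 0.362 against 2.95 in the control, 0 against 2.88 in CKD 1 and 0.284 against 4.45 in CKD 2, but at 3.63 against 2.33 in AKI 1.

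Cytotoxic genes followed the same split. Gzma stood at 7.18 per 10000 in control cells with the set and 60.9 in the others, at 13.0 against 60.2 in CKD 1 and at 6.43 against 50.02 in CKD 2. AKI 1 had 15.7 against 46.6 and AKI 2 had 48.1 against 43.0. Prf1 was lower in cells with the set in all 5 libraries, for example 1.39 against 6.52 in the control and 1.32 against 5.37 in CKD 2. Ncr1, a gate gene, stood at 2.65 against 2.51 in the control, whereas Klrb1c stood at 2.20 against 4.66. Without mixed droplets, Eomes in the control stood at 0.192 against 2.99 and Gzma at 7.54 against 65.3. Without mixed droplets Gzmb, like Gzma, was lower in cells with the set in all but AKI 2. It stood at 1.09 against 6.53 in the control and 2.76 against 1.60 in AKI 2. S1pr5 was higher in cells with the set in no library (0.128 against 0.853 in the control), and Zfp683 was almost absent. The other genes planned for the split showed no common direction. Ltb stood at 4.09 against 1.11 in the control and 1.15 against 2.21 in AKI 1. Zeb2 stood at 0.575 against 2.73 in the control and 1.53 against 0.931 in AKI 1. Tcf7 stood at 1.02 against 0.896 in the control and 0.847 against 1.16 in CKD 1. Itgam stood at 0.192 against 0.853 in the control and 1.72 against 1.28 in AKI 1. Tbx21 stood at 0.639 against 0.939 in the control and 1.18 against 0.874 in AKI 2. Cells with the set also had more UMIs, with medians of 3745 against 3097 in the control and 6552 against 3913.5 in CKD 2, and no test was made of this split.

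**Figure D5:**
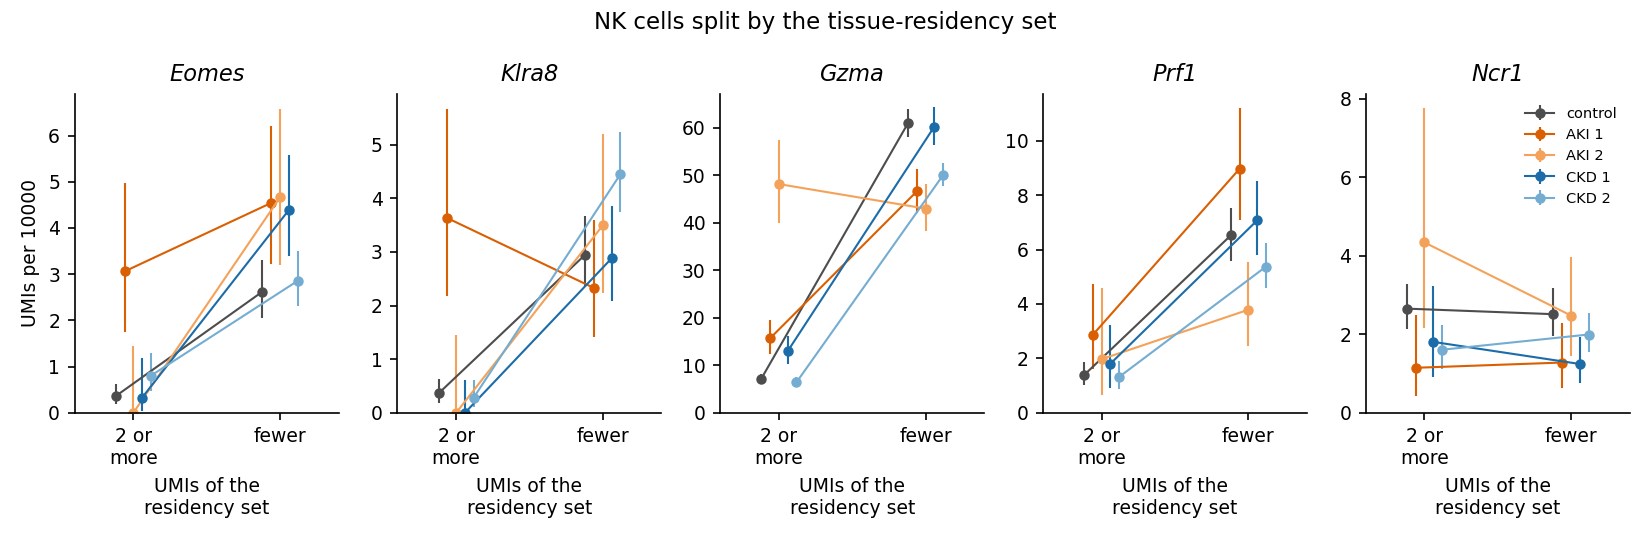
UMIs per 10000 of 5 genes in NK cells with 2 or more UMIs of the residency set and in NK cells with fewer, joined by a line for each library; bars are 95% Poisson intervals. Eomes and Prf1 are lower in cells with the set in all 5 libraries, Gzma in all but AKI 2 and Klra8 in all but AKI 1, while Ncr1 shows no common direction.

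Surface markers of maturation were found in a minority of NK cells. Itgam (CD11b), the surface marker of mature mouse NK cells, was expected in 8.60% of thinned control cells, 16.4% and 10.7% of AKI cells and 8.87% and 8.79% of CKD cells, against 0 to 1.53% of B lymphocytes. CKD lay 4.72 percentage points below AKI (pooled SD 2.84, n = 2 and 2), and 1.87 points below it without AKI 1. Cd27, which marks immature stages, was expected in 7.97%, then 2.09% and 8.27%, then 4.04% and 9.95%, and the groups overlapped. S1pr5, an exit receptor of mature NK cells, had 24 UMIs in the control and 8 in the other 4 libraries together; Cx3cr1 had 15 in the control, 8 in CKD 2 and none elsewhere.

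Dividing cells were few. Mki67, a proliferation antigen, was found in 2 control NK cells, 1 and 0 AKI cells, and 3 and 6 CKD cells, with 3, 7, 0, 30 and 15 UMIs. Top2a was found in 6, 2, 2, 4 and 11 cells. Of 7 cell cycle genes tested between CKD and AKI, 1 had an unadjusted p under 0.05, Ube2c (log2 2.43, SE 0.77, edgeR adjusted p = 0.398), whose UMIs came from 3 and 2 cells of CKD 1 and CKD 2.

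The change from AKI to CKD was then compared with that of CD8 T lymphocytes of the same libraries (2349 to 3100 cells each in AKI and CKD), by the interaction term of edgeR's quasi-likelihood fit. NK and CD8 T cells of a library share its free RNA. The change differed for 63 of 12905 genes (0.488%), 50 with a more positive change in NK cells and 13 with a more negative one, and 594 had an unadjusted p under 0.05. DESeq2 called 2, Tyrobp and Ctsk. Fitted on the 2275 genes past the filter in NK cells alone, edgeR called 0, with 189 at an unadjusted p under 0.05, while the log2 differences hardly moved (Tyrobp -1.69 and -1.72, Spp1 2.06 and 2.04).

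Of the 5 genes with the smallest p in the positive direction, Spp1, S100g and Gpx3 are known from injured or normal tubule. Spp1, osteopontin, stood at 8.76 and 8.62 per 10000 in AKI NK cells and 13.3 and 19.9 in CKD NK cells, and at 28.7 and 19.0 against 21.3 and 5.55 in CD8 T lymphocytes (log2 difference of changes 2.06, SE 0.25, edgeR adjusted p = 8.75e-13). S100g, a calcium-binding protein of the distal tubule, stood at 1.52 and 0.638 in AKI and 1.82 and 5.06 in CKD NK cells, and at 2.94 and 2.41 against 2.24 and 0.534 in CD8 T lymphocytes. In both genes CKD 2 was the lowest CD8 T library and the highest CKD NK library. Without CKD 2 the calls dropped to 10, and none of the 5 was among them by edgeR (Spp1 log2 0.82, adjusted p = 0.166; S100g log2 1.04, adjusted p = 1.0). With at least 3 gate UMIs a cell, the Spp1 difference was 0.78 (edgeR adjusted p = 0.326) and that of Gpx3 0.42 (adjusted p = 1.0).

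In the negative direction stood NK adaptor genes and histone genes. Tyrobp, the adaptor DAP12, stood at 16.5 and 21.3 per 10000 in AKI NK cells and 17.6 and 15.5 in CKD NK cells, and in CD8 T lymphocytes at 0.280 and 0.490 in AKI and 1.37 and 0.834 in CKD. The log2 difference of the changes was -1.69 (SE 0.26, edgeR adjusted p = 1.87e-07, with a range over its alternatives from 1.29e-08 to 0.154, and 0.135 without AKI 1). Fcer1g stood at 16.6 and 20.5 against 13.9 and 13.4 in NK cells and 0.195 and 0.350 against 0.764 and 0.422 in CD8 T lymphocytes. Its log2 difference of -1.53 (edgeR adjusted p = 1.27e-05) was no longer called without AKI 1 (adjusted p = 0.365), on genes past the NK filter (0.405) or by DESeq2 (0.555). Hist1h1b, a replication-dependent histone, stood at 1.74 and 0.426 against 1.36 and 0.316 in NK cells and at 1.56 and 1.65 against 5.31 and 4.02 in CD8 T lymphocytes. Its call and that of Hist1h2ae were lost without AKI 1 (edgeR adjusted p = 1.0 for both) and without CKD 2 (0.510 and 0.273).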

How the data were processed

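For each library the authors deposited raw UMI counts, whole numbers for every gene in every barcode, with no normalization. Alignment and counting were done with Cell Ranger 7.2.0 and STAR on GRCm39 per the submitters' processing notes, whereas file headers name Cell Ranger 5.0.0 and the control's gene list names mm10, so the build is uncertain. All libraries list the same 32285 genes. Doublet and free RNA removal is not part of the counts, and neither was run here; mixed droplets were left out as an alternative. The kept cells held between 64825786 and 105551199 UMIs per library.

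Counts were summed over NK cells per library. Levels are UMIs per 10000 with exact Poisson intervals, shares have exact binomial intervals, and thinned shares are hypergeometric expectations for 1500 UMIs, with shallower cells (0 to 2 NK cells a library) left out and the binomial interval set at the expected count. CD8 T and B lymphocytes were gated by their own markers. CKD and AKI were compared with edgeR 4.0.16 in R 4.3.3 (TMM, filterByExpr, quasi-likelihood test), called at an adjusted p under 0.05, and DESeq2 1.42.0 was the alternative. Control and AKI were compared by fold, with a library at 0 set to 3 UMIs. Both fits were tested on simulated data: for the difference to CD8 T lymphocytes, with 12905 genes simulated, 9% of 4-fold and 1% of 2-fold changes came back and no false call was made, and for CKD against AKI, with 2275 genes, 6 calls were false. Python 3.11.15 with numpy 2.4.6, scipy 1.17.1 and pandas 2.3.3 was used.

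Genes named were, per list, the members called and the 2 with the highest level, the NK cell markers, the 5 genes with the largest fold each way against control (at least 30 UMIs, outside marker lists), and the 5 with the smallest p each way for the difference to CD8 T lymphocytes; other names were chosen after their values were seen. The cells, the lists and the tests were chosen with earlier results of these data known. Alternatives were another size factor, no filter, other gates, a UMI limit, a stricter mitochondrial limit and leaving out libraries.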

Additional observations from a re-analysis of the deposited data

Results flagged for a closer look

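The change from AKI to CKD differed between NK cells and CD8 T lymphocytes for 63 genes by the interaction term of edgeR's fit. The log2 difference of the changes (NK cells minus CD8 T lymphocytes) was 2.06 for Spp1, 2.95 for S100g, 3.85 for Ldhb, 1.76 for Gpx3 and 2.71 for Cd63. It was -1.69 for Tyrobp, -1.53 for Fcer1g, -3.24 for Hist1h2ae, -2.23 for Hist1h1b and -1.72 for Plac8. Ldhb, a lactate dehydrogenase subunit, rested on 5 and 1 UMIs in AKI NK cells against 37 and 134 in CKD, and Cd63 on 9 and 3 against 31 and 216. Without CKD 2 the differences were 2.33 for Ldhb (edgeR adjusted p = 0.0743), 0.33 for Gpx3 and 0.75 for Cd63 (adjusted p = 1.0 for both), none of them called. Plac8 was no longer called without AKI 1 (-1.41, adjusted p = 0.425) or with at least 3 gate UMIs a cell (-0.49, adjusted p = 1.0). Proximal tubule markers in NK cells were 10.4 and 10.6 per 10000 in AKI and 22.1 and 33.1 in CKD, and their part in the positive differences was not tested.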

How the results depend on the processing

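For CKD against AKI, where the main count was 0, alternatives called 4 genes (DESeq2), 48 (no filter on low counts, of 13224), 6 (all 5 libraries in the fit), 12 (no other-lineage UMIs, of 182) and 7 to 35 when a library was left out. The replicate block called 45; replicate numbers did not pair the libraries (correlation of deviations 0.0755). The stricter gate, UMI limit, 15% mitochondrial limit, median-ratio size factors, removal of shared barcodes and, chosen after seeing the data, removal of mixed droplets called 0. With no other-lineage UMIs, which left 2, 2, 2 and 37 cells, the log2 differences of Ccl5 (2.91) and Xcl1 (3.08) reversed. For the difference to CD8 T lymphocytes, where the main count was 63, DESeq2 called 2, no filter 38, the stricter gate 24 (Hist1h2ae reversed to 8.53), only genes past the NK filter 0, and left-out libraries 10 to 109. Control against AKI gave 783 genes, and 466 with at least 30 UMIs.

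The NK share of kept cells (0.430 points, CKD minus AKI) ranged over left-out libraries from 0.0754 to 0.785, and the share among lymphocytes (0.704) from 0.341 to 1.07; with no other-lineage UMIs the latter was 0.264. The Itgam difference (-4.72 points) ranged from -7.56 to -1.87 and was -13.98 unthinned and -0.704 with the stricter gate. The residency difference (2.50) ranged from 2.12 to 2.88 and was -6.57 unthinned, 1.31 with the stricter gate and 1.44 without mixed droplets. Against B lymphocytes the difference of 7.26 points was 0.609 when cells were thinned before the gate. The causes were not tested. AKI held 52 NK cells in all, which limits every comparison with it.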

Other observations

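MHC class II transcripts were uneven among NK cells. Cd74, the invariant chain, stood at 3.12 per 10000 in the control, 58.6 in AKI 1, 3.30 in AKI 2, and 15.96 and 20.1 in CKD. In AKI 1 its 810 UMIs came from 16 of 30 NK cells. H2-Aa stood at 1.24, then 19.3 and 1.06, then 7.96 and 8.15 per 10000. Dendritic cell markers stood at 0.0330 in the control, 0.507 and 0 in AKI and 0.374 and 0.688 in CKD.

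Ly6a, the Sca-1 antigen, stood at 3.03 per 10000 in the control (184 UMIs in 40 cells) and 0.106 to 0.655 in the 4 other libraries, beside endothelial markers at 7.69 and 0.106 to 0.800.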
